A study of Mus musculus with 4 samples.

Results

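Forkhead transcription factors were described in mouse ureters in which 2 fibroblast growth factor (FGF) receptor genes were targeted for deletion in the mesenchyme. The set took every non-control probe whose gene name is Fox, a letter from a to s and a number. It left out 8 genes that belong to hedgehog, urothelial or related gene sets: Foxa1, Foxa2, Foxf1, Foxf2, Foxl1, Foxd3, Foxo1 and Foxo3. This gave 36 genes with 51 probes, out of 29875 gene names with 39429 probes on the array. The rule works on names, but it was set with earlier results of these data known. All 51 names were current gene symbols.

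Ureters were dissected from embryos of the NMRI strain at stage E14.5 (embryonic day). The mutants, called cDKO (conditional double knockout), were Tbx18(cre/+) and carried floxed alleles of both receptor genes in homozygous form, Fgfr1(fl/fl) with Fgfr2(fl/fl). In controls the labels give a floxed allele for each receptor gene, written Fgfr1(fl/?) and Fgfr2(fl/?), with no cre allele given and the other allele not stated. Tbx18 encodes a factor made by the mesenchyme around the ureter, so the urothelium, the inner epithelium, is not the target of this cre. The cre allele is labelled for cDKO alone, so cDKO and control may differ by it as well as by the deletions. On each of 4 arrays a cDKO extract was hybridised against a control extract with the same sex label (female on replicates 1 and 4, male on 2 and 3), and no animal or pool is named behind a replicate. Replicates 1 and 2 lay on slide 1 and replicates 3 and 4 on slide 2, and the slides were scanned on different scanners.

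Forkhead proteins bind DNA through a winged helix domain, and the letter in a name marks the subfamily. Several act in the mesenchyme of the urinary tract: FOXC1 and FOXC2 in the positioning of the ureteric bud and in vessels, FOXD1 in the stroma of the kidney. FOXO factors are kept out of the nucleus by AKT signalling downstream of growth factor receptors, FOXM1 drives the genes of mitosis, FOXJ1 drives those of motile cilia, and FOXI1 is needed for the acid-secreting intercalated cells of the kidney.

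Each probe is 60 bases long, and the sequences below show which stretches of transcript stand behind the Foxp1, Foxp2 and Foxl2 values, where a gene had several probes or an unusual probe. The scanner files place probes on mouse build mm9, and the exon or untranslated region behind a probe is not stated because no annotation of that build was used here. The first sequences belong to Foxp1, which had 5 probes, of which 4 were measured. In the order of transcription on the minus strand they lie at chr6:99112925-99112984, chr6:98885382-98889719 and chr6:98880084-98880143, and the middle probe is placed over a stretch longer than itself, as a probe across an intron is.
A_55_P2105452: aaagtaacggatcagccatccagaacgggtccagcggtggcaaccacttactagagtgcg
A_52_P276792: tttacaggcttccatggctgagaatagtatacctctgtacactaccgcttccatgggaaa
A_55_P2088825: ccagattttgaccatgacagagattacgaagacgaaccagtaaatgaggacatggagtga
The Foxp2 probe at chr6:15363873-15365044 on the plus strand is likewise placed over more bases than it holds.
A_51_P233753: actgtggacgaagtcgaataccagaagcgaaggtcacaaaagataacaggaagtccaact
Both Foxl2 probes lie on the plus strand, at chr9:98856846-98856905 and chr9:98856894-98856950, and capitals mark the 12 bases that they share.
A_55_P2041668: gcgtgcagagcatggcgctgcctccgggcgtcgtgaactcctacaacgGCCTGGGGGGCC
A_55_P2037732: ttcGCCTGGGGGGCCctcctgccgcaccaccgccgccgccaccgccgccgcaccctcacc
The second of these, which reports Foxl2 below, holds the triplet CCG 7 times and is 81.7% G and C, against a median of 41.7% over all probes, and 0.0228% of probes are at least as rich in G and C.

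All 4 arrays gave 157716 spots outside the controls, with a median intensity per channel between 138.7 and 417.3 and no saturated spot. Between 64.9% and 72.6% of spots were well above background. The correlation of log2 ratios across genes between arrays ran from 0.00559 for replicates 2 and 3 to 0.507 for replicates 1 and 2. For replicates 3 and 4, which share slide 2, it was 0.112. That is below the 0.41 of replicates 1 and 3, the 0.343 of 2 and 4 and the 0.258 of 1 and 4, which lie on different slides. Fgfr1 had log2 ratios of cDKO over control of -0.35, -0.09, -0.59 and -0.55 on replicates 1 to 4, with a fitted value of -0.40 ± 0.10 (SE, n = 4 arrays) and an adjusted p of 0.117 in limma. Fgfr2 rose by 0.59 ± 0.07 (SE, limma adjusted p = 0.0356), although the labels give it as deleted in the mesenchyme. The files do not say where these probes lie relative to the deletions, and a probe outside a deletion checks nothing about the labels. The markers listed for ureteric mesenchyme (6 genes), smooth muscle (6) and urothelium (9) were all measured.

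A gene was tested where at least 3 of the 4 spots of a probe were well above background on every array in the cDKO channel or on every array in the control channel. Of the 36 genes 23 were tested, 22 of them through both channels. Foxh1, which encodes a partner of SMAD proteins in NODAL signalling, passed through the cDKO channel alone. The other 13 were not well above background often enough. For 7 of these no array reached 3 of 4 spots in either channel: Foxa3 (a liver and gut endoderm factor), Foxb1 and Foxb2 (neural), Foxi2, Foxn1 (thymic epithelium), Foxr1 and Foxr2. Foxn4, Foxe1 (thyroid), Foxe3 (lens), Foxi3 (ectodermal organs) and Foxj2 were among those that reached it on some arrays. Of these, Foxi3 had 13 of 16 spots well above background in cDKO and 14 of 16 in control. Foxj2 had 10 in cDKO and 14 in control.

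None of the 23 forkhead genes passed the test at an adjusted p under 0.05 (limma, Benjamini-Hochberg over 19365 genes), where 0.852% of all genes did. At an unadjusted p under 0.05 there were 10 of 23, against 19.6% of all genes. All 10 were higher in cDKO and 0 lower, where the shares of all genes were 11.7% and 7.88%: Foxc1, Foxc2, Foxj3, Foxo6, Foxp2, Foxn3, Foxk2, Foxm1, Foxp1 and Foxd2. Over all 23 the fitted log2 ratio was above 0 for 16 genes and below 0 for 7, where 52.7% of all genes were above 0. The median of the 23 was 0.17, against 0.01 over all genes. The largest was that of Foxc1, at 1.43-fold. Ratios were above 0 on all 4 arrays for 8 forkhead genes, against 13.4% of all genes. They were below 0 on all 4 for Foxp3 alone, against 11.8%. Fitted values are log2 ratios of cDKO over control, so 0.52 is 1.43-fold and 0.25 is 1.19-fold. Because ureters hold several cell types, a change in the number of cells of a type and a change in RNA per cell cannot be told apart in these values.

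**Figure D1:**
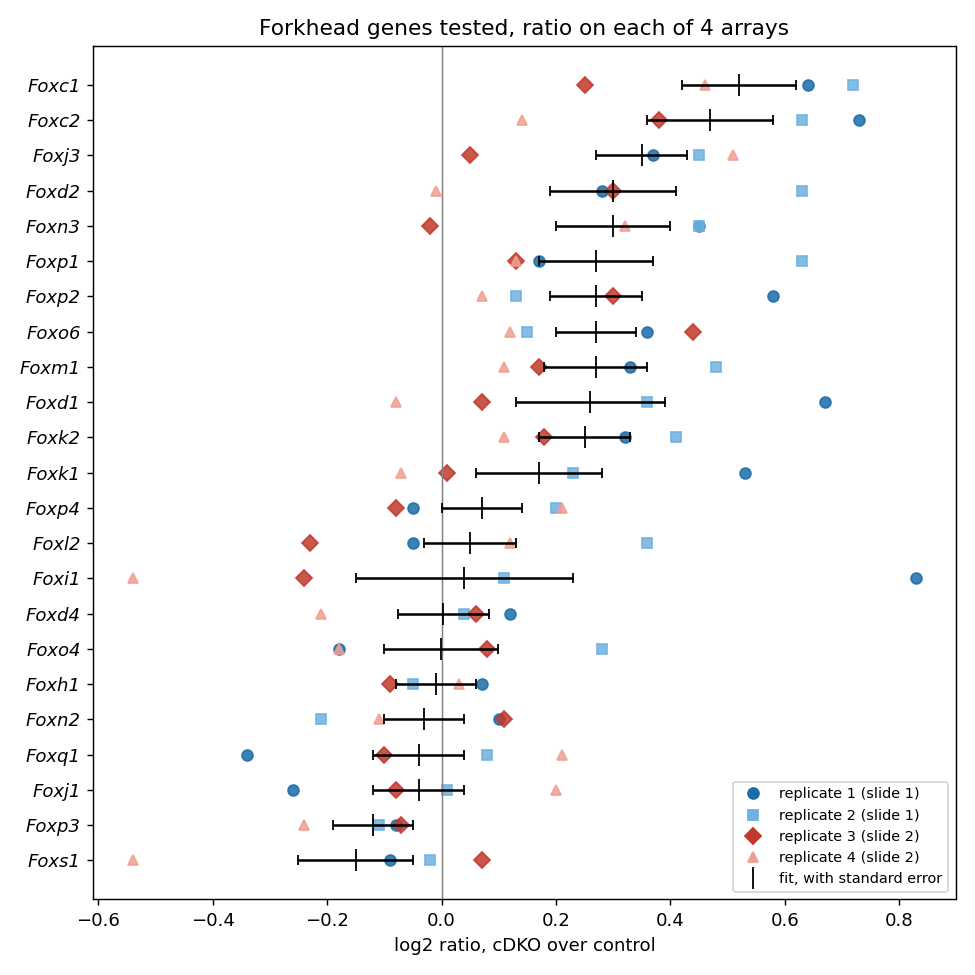
Log2 ratio of cDKO over control (horizontal axis) for the 23 forkhead genes tested, with a coloured point for each of the 4 arrays and a black bar for the fitted value with its standard error. Foxc1 and Foxc2 sit farthest to the right, none passed the adjusted test, and the points of Foxi1 spread from -0.54 to 0.83.

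The stromal, vascular and mesenchymal genes held the 2 highest values of the set, those of Foxc1 and Foxc2. All 6 were tested, none passed, 4 were above 0, and their median was 0.28, against 0.01 over all genes. The 6 include Foxq1, which is known from epithelium, so the name of the group does not cover it. Foxc1 had log2 ratios of 0.64, 0.72, 0.25 and 0.46 on replicates 1 to 4. Every array put it higher in cDKO, and the ratios of slide 1 were above both of slide 2. The fitted value was 0.52 ± 0.10 (SE, n = 4), with a 95% interval of 0.29 to 0.75 and a limma adjusted p of 0.0681. Its probe lies on chromosome 13 at 31902423 to 31902482.

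The channel levels of Foxc1, on a log2 scale after scaling between arrays, differed in spread. In control they were 12.40, 12.37, 12.37 and 12.40 on replicates 1 to 4 (SD 0.02), and in cDKO 13.04, 13.09, 12.62 and 12.86 (SD 0.21). The groups did not overlap, and the array-to-array differences were seen in the cDKO levels. Each level is built from the intensity of both channels and their ratio, so the spread cannot be assigned to a genotype. Foxc2, the related gene that also acts in lymphatic valves, had log2 ratios of 0.73, 0.63, 0.38 and 0.14. Here the cDKO levels were nearly level, at 14.12, 14.23, 14.15 and 14.11 (SD 0.05), while the control levels stood at 13.39, 13.60, 13.77 and 13.97 (SD 0.25). The groups again did not overlap, and the spread was seen in the control levels, with the same limit. The fitted value of Foxc2 was 0.47 ± 0.11 (SE, n = 4; 95% interval 0.20 to 0.73; limma adjusted p = 0.107), with its probe on chromosome 8 at 123642693 to 123642752. Foxc1 and Foxc2 were the 2 forkhead genes tested whose levels did not overlap with cDKO higher, against 4.71% of all genes, and the opposite order held for 3.33% of all genes and for no forkhead gene tested.

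Foxd2, a gene of the nephrogenic and paraxial mesenchyme, had log2 ratios of 0.28, 0.63, 0.30 and -0.01. Replicate 4 stood apart from the other arrays in showing no difference. The fit over the arrays gave 0.30 ± 0.11 (SE, n = 4; limma adjusted p = 0.226), and the probe lies on chromosome 4 at 114578944 to 114579003. Foxd1, the marker of kidney stroma progenitors, had ratios of 0.67 and 0.36 on slide 1 and 0.07 and -0.08 on slide 2. Its cDKO levels were 14.18 and 14.09 on slide 1 and 13.18 and 13.35 on slide 2, and its control levels were 13.51, 13.73, 13.11 and 13.42. Foxd1 was thus lower in both channels of slide 2 than in the same channel of slide 1, and the groups overlapped. Fitted over the arrays, the gene stood at 0.26 ± 0.13 (SE, n = 4; 95% interval -0.04 to 0.56; limma adjusted p = 0.314). Foxs1, a gene of cells around vessels, stood at -0.15 ± 0.10 (SE) and Foxq1, known from hair and stomach epithelium, at -0.04 ± 0.08 (SE).

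**Figure D2:**
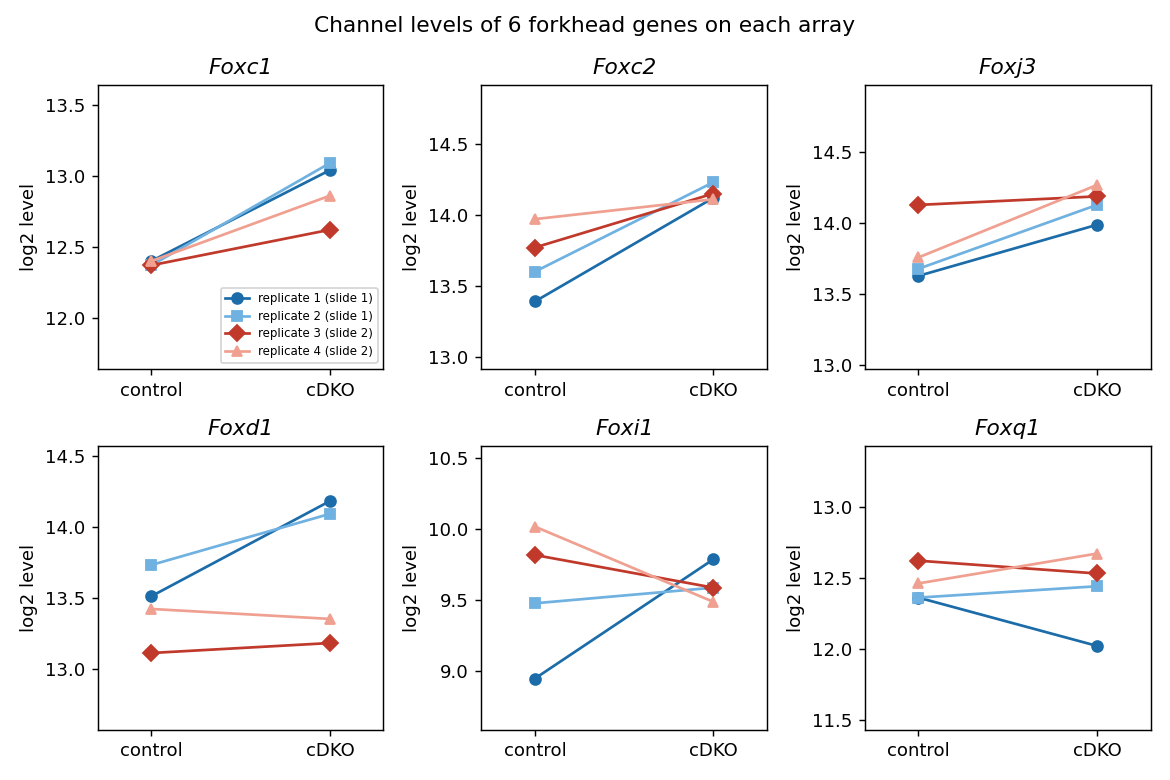
Log2 level of 6 forkhead genes in the control and cDKO channels, with a line joining the channels of each array and the same height of 2 log2 units in every panel. Foxc1 controls coincide near 12.4 while the cDKO points spread, Foxc2 shows the reverse, and the lines of Foxi1 cross.

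Markers of other cells are given beside the Foxc genes. Of the 6 endothelial markers, all of them measured, 5 had values below 0, with a median of -0.37. Emcn, which encodes the endothelial surface protein endomucin, fell by 0.58 ± 0.07 on the log2 scale (SE, limma adjusted p = 0.0363). The summed endothelial level ran from 14.19 to 14.45 in cDKO and from 14.37 to 14.78 in control. Of the ureteric mesenchyme markers 5 of 6 were above 0, with a median of 0.32, and Ptch1, the hedgehog receptor and target gene, rose by 0.55 (limma adjusted p = 0.0401). All 4 pericyte markers were measured, with a median of -0.01 and a summed level of 12.50 to 12.67 in cDKO and 12.61 to 12.71 in control. All 5 macrophage markers were below 0, with a median of -0.24 and a summed level of 13.64 to 13.96 in cDKO and 14.05 to 14.27 in control, and Fcer1g passed (limma adjusted p = 0.049). All 5 erythroid markers were below 0 as well, with a median of -0.34 and a summed level of 17.34 to 18.06 in cDKO and 17.84 to 18.31 in control, and Hbb-bh1 and Hba-x, globin genes of the embryo, passed. Of the 9 urothelial markers 7 were below 0, with a median of -0.03 and a summed level of 17.34 to 17.72 in cDKO and 17.41 to 17.55 in control. The uroplakin gene Upk1b fell by 1.43 ± 0.20 on the log2 scale (SE, limma adjusted p = 0.0401). The part of these cells in the values of Foxc1, Foxc2 and the other forkhead genes was not tested.

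Genes around the stromal forkhead factors were read from lists. The list of stroma that expresses Foxd1, Foxc1 or Foxc2 had 18 genes, all tested, with 14 above 0 and a median of 0.21. Smoc2, a matrix protein gene, rose by 0.64 ± 0.09 (SE, limma adjusted p = 0.0428) and was the single gene of the list that passed. Ecm1, another matrix protein gene, had a value of 0.63 ± 0.10 (SE, limma adjusted p = 0.0532), while Dcn, the gene of the matrix proteoglycan decorin, stood at -0.63 ± 0.13 (SE, limma adjusted p = 0.0781) and Tcf21, a mesenchymal transcription factor gene, at -0.27 ± 0.08 (SE, limma adjusted p = 0.138). The median of the list by array was 0.40 and 0.44 on slide 1 and -0.05 and 0.17 on slide 2, so it was higher on slide 1, as were Foxc1, Foxc2 and Foxd1. The list of genes tied to FOXC1 and FOXC2 in vessel and lymphatic development lay on the other side, with 9 of 12 tested genes below 0, a median of -0.14 and none past the test. Its smallest p-values belonged to Nfatc1, a transcription factor of valve endothelium, at -0.51 ± 0.14 (SE, limma adjusted p = 0.141), and to Dll4, the arterial Notch ligand, at -0.22 ± 0.07 (SE, limma adjusted p = 0.177). Prox1, the lymphatic master regulator, was not well above background often enough to be tested.

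Kidney markers were looked at because Foxd1 marks kidney stroma. The list of 6 holds Foxd1 itself, and 4 were measured, with no gene past the test and a median of 0.19. Nphs1 of podocytes and Umod of the thick ascending limb were not tested for lack of signal. Pax8, expressed in the nephric lineage, had ratios of 0.52, 0.89, 0.39 and 0.10 on replicates 1 to 4 and a fitted value of 0.47 ± 0.13 (SE, limma adjusted p = 0.139). Its ratios were higher on slide 1, as those of Foxd1 were. Six2 of nephron progenitors stood at -0.34, -0.03, 0.68 and -0.18 and Cited1 at -0.02, 0.26, 0.23 and 0.01, with no such order by slide. The summed level of the 4 genes ran from 14.15 to 14.80 in cDKO and from 13.96 to 14.43 in control. The share of kidney tissue in the Foxd1 value was not tested.

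The FOXP genes, whose proteins pair through a leucine zipper and repress transcription, were all tested, with 3 of 4 above 0 and a median of 0.17. Foxp2, known for its part in the development of brain and lung, had log2 ratios of 0.58, 0.13, 0.30 and 0.07. With the probe that reports the gene every array was above 0, and replicate 1 had the highest value. The fitted value was 0.27 ± 0.08 (SE, n = 4; limma adjusted p = 0.156). Foxp1, which acts in heart, lung and blood cells, had ratios of 0.17, 0.63, 0.13 and 0.13. Replicate 2 was well above the other arrays, which differed by little among themselves. The fit over the arrays gave 0.27 ± 0.10 (SE, n = 4; limma adjusted p = 0.22). Foxp4 stood at 0.07 ± 0.07 (SE). Foxp3, the factor of regulatory T cells, stood at -0.12 ± 0.07 (SE) with a limma adjusted p of 0.398. Of the T cell markers listed beside it, Il2ra and Ctla4 were not well above background often enough to be tested, and Cd3e and Cd4 had a median of -0.02.

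Values of further probes of a gene can be set beside those of the brightest. Several kept probes were available for 6 forkhead genes. The second probes of Foxo6 and Foxl2 and the third of Foxp2 were kept through the cDKO channel alone, and their values of 0.07, 0.03 and 0.03 lie within about their standard errors of 0. Of the Foxp4 probes 2 share 54 of their 60 bases, so they are not separate measurements. The Foxp1 probe that stands for the gene, the third printed above, had the value with the high replicate 2. Its other measured probes had 0.20 ± 0.07 (SE) for the first printed, 0.16 ± 0.09 (SE) for the one across a longer stretch and 0.10 ± 0.08 (SE) for an unprinted one. The first printed probe stood at 0.09, 0.22, 0.24 and 0.26 on replicates 1 to 4, with no high replicate 2. The printed Foxp2 probe had 0.25 ± 0.12 (SE), near the 0.27 of the probe that reports the gene. However, its ratios were 0.64, 0.34, 0.14 and -0.11 on replicates 1 to 4, so replicate 4 was below 0. The third Foxp2 probe, which lies farthest upstream, had 0.03 ± 0.08 (SE) and was below 0 on replicates 1 and 2. None of the probes of these 6 genes passed the limma test over all kept probes, and the difference between probes of a gene was not tested.

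**Figure D3:**
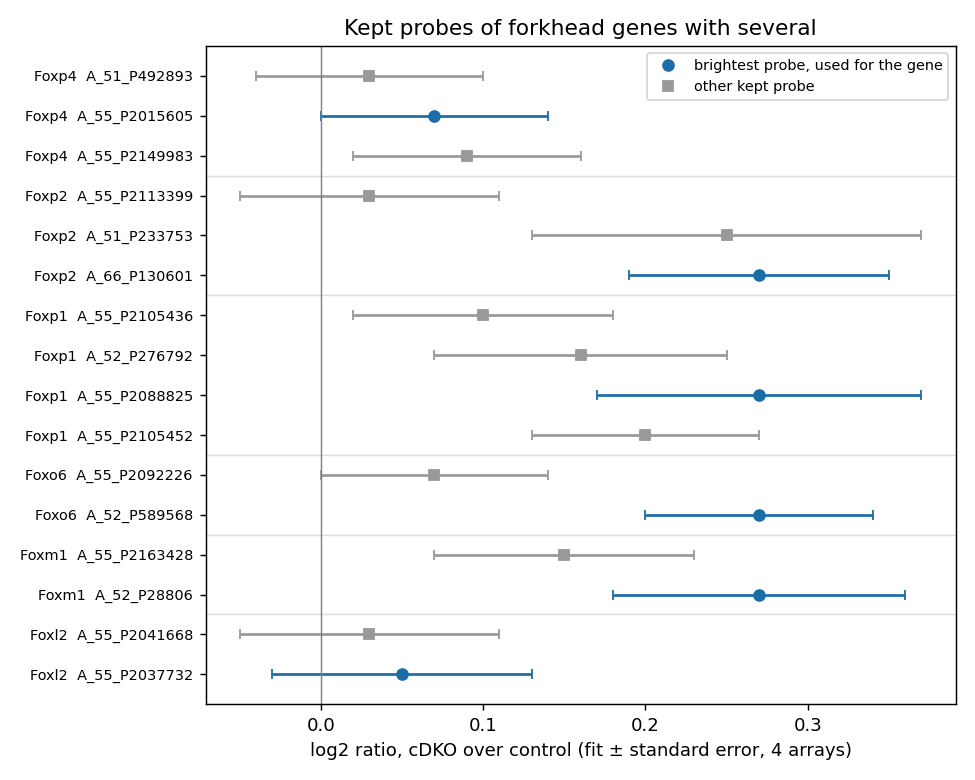
Log2 ratio of cDKO over control with its standard error (4 arrays) for each kept probe of the 6 forkhead genes with several, the probe used for the gene as a blue circle and the others as grey squares. The Foxp1 probes lie between 0.10 and 0.27, and the third Foxp2 probe is the nearest to 0 of its gene, at 0.03.

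The FOXO genes outside the rule's exceptions were Foxo4 and Foxo6. Foxo6, best known from the brain, had log2 ratios of 0.36, 0.15, 0.44 and 0.12. All arrays put it above 0, and the 2 with cDKO in the red channel, replicates 1 and 3, gave the higher ratios. Fitted over the arrays, the gene stood at 0.27 ± 0.07 (SE, n = 4; 95% interval 0.10 to 0.44; limma adjusted p = 0.129). Its probe lies on chromosome 4 at 119939688 to 119939747, and a second probe had a value of 0.07 ± 0.07 (SE). Foxo4 had ratios of -0.18, 0.28, 0.08 and -0.18, on both sides of 0, and its 95% interval was -0.24 to 0.24. Its levels, 6.77 to 7.05, lay near the lowest level well above background, which was 6.56 to 6.91 by channel and array. So close to background, a ratio near 0 cannot show that the gene was unchanged. Of 21 tested genes tied to FOXO factors 9 were above 0 and 12 below, with a median of -0.02. Fbxo32, the ubiquitin ligase gene of muscle wasting, rose by 0.75 ± 0.10 (SE, limma adjusted p = 0.0385), with ratios of 0.81, 1.04, 0.33 and 0.83, and was the single gene of the list that passed. Bcl6, a transcriptional repressor gene, had a value of 0.64 ± 0.11 (SE, limma adjusted p = 0.0642).

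Of the FOXM, FOXN and FOXR genes 3 of 7 were tested, with a median of 0.27. Foxm1 had log2 ratios of 0.33, 0.48, 0.17 and 0.11, above 0 on every array and higher on slide 1. The fitted value was 0.27 ± 0.09 (SE, n = 4; limma adjusted p = 0.178), with its probe on chromosome 6 at 128324783 to 128324842. A second Foxm1 probe, also kept in both channels, had 0.15 ± 0.08 (SE). Its ratios were 0.08, 0.02, 0.12 and 0.35 on replicates 1 to 4, so they were higher on slide 2 instead. The list of 16 mitotic genes tied to FOXM1 was tested whole, with 10 above 0, 6 below, none past the test and a median of 0.05. Aurkb, a kinase of chromosome segregation, had a value of 0.34 ± 0.07 (SE, limma adjusted p = 0.0853) and Cdc25b, a phosphatase that starts mitosis, one of 0.24 ± 0.07 (SE, limma adjusted p = 0.167). Foxn3, linked to cell cycle checkpoints, had ratios of 0.45, 0.45, -0.02 and 0.32. Replicate 3 alone showed no difference, and the fitted value was 0.30 ± 0.10 (SE, n = 4; limma adjusted p = 0.175). The Foxn3 probe lies on chromosome 12 at 100433355 to 100433414. Foxn2 stood at -0.03 ± 0.07 (SE).

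Of the FOXK and FOXJ genes 4 of 5 were tested, with a median of 0.21. Foxj3, a factor of muscle and germ cells, had log2 ratios of 0.37, 0.45, 0.05 and 0.51. Its cDKO levels were 13.99, 14.13, 14.19 and 14.27 and its control levels 13.63, 13.68, 14.13 and 13.76. The control of replicate 3 was as high as the cDKO samples, so the groups overlapped. The fit over the arrays gave 0.35 ± 0.08 (SE, n = 4; 95% interval 0.15 to 0.55; limma adjusted p = 0.11), with the probe on chromosome 4 at 119301652 to 119301711. Foxk2, a repressor with a phosphopeptide-binding domain, had ratios of 0.32, 0.41, 0.18 and 0.11 and a fitted value of 0.25 ± 0.08 (SE, n = 4; limma adjusted p = 0.178). It was above 0 on every array, and its probe lies on chromosome 11 at 121171126 to 121171185. The related Foxk1 had ratios of 0.53, 0.23, 0.01 and -0.07 and a fitted value of 0.17 ± 0.11 (SE). Foxj1 stood at -0.04 ± 0.08 (SE). Of its list of 19 genes of motile cilia 14 were tested, none passed, 11 were above 0 and the median was 0.05. The smallest p-values of that list belonged to Tppp3, at -0.36 ± 0.08 (SE, limma adjusted p = 0.0908), and to Tekt2, at 0.16 ± 0.08 (SE, limma adjusted p = 0.321).

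The neural, endodermal, germ layer and specialised epithelial genes were mostly without measurable signal. Of 12 such genes 4 were tested, with a median of 0.02 and none at an unadjusted p under 0.05. Foxl2, the factor of ovary and pituitary, had log2 ratios of -0.05, 0.36, -0.23 and 0.12, with the array signs following the dye: the 2 arrays with cDKO in the green channel were above 0 and the others below. Foxq1, Foxj1 and Foxp4 had the same signs by array, and Foxn2 had the opposite signs. The fitted value, which has the dye as a term, was 0.05 ± 0.08 (SE, n = 4; limma adjusted p = 0.797). The second Foxl2 probe printed above reports it, and the first had 0.03 ± 0.08 (SE). The signal of both probes rests on sequence far richer in G and C than most probes, and whether it reports Foxl2 RNA was not tested. Foxd4 stood at 0.0033 ± 0.08 (SE) and Foxh1 at -0.01 ± 0.07 (SE). Their mean levels were 7.10 and 7.06 in cDKO and 7.10 and 7.07 in control, near background with the limit given for Foxo4.

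Foxi1, whose probe lies on chromosome 11 at 34104352 to 34104411, had the widest range of ratios between arrays among the 23 genes. Its log2 ratios were 0.83, 0.11, -0.24 and -0.54 on replicates 1 to 4, so that both arrays of slide 1 were above 0 and both of slide 2 below. The cDKO levels were 9.79, 9.59, 9.59 and 9.49 (SD 0.12), and the control levels were 8.95, 9.48, 9.82 and 10.02 (SD 0.47). The control levels thus held most of the spread, with the limit given for Foxc1. Fitted over the arrays, the gene stood at 0.04 ± 0.19 (SE, n = 4), with a 95% interval of -0.41 to 0.49. The mean ratio was 0.47 on slide 1 and -0.39 on slide 2, a difference of -0.86 ± 0.16 (SE, limma adjusted p = 0.0537), which missed the threshold. Of 12 genes tied to FOXI1 in intercalated cells 9 were tested, with none past the test, 4 above 0, 5 below and a median of -0.01. Rhcg, an ammonia transporter gene, had ratios of 1.41, 1.25, 0.86 and 0.21 and a fitted value of 0.93 ± 0.18 (SE, limma adjusted p = 0.072). Its ratios fall in the same array order as those of Foxi1, but all lie above 0. Atp6v0d2, a proton pump subunit gene picked after seeing its values, had ratios of 0.44, 0.06, -0.11 and -0.46. These had the sign of Foxi1 on every array, and the fitted value was -0.02 ± 0.13 (SE). Slc4a9 of the same list had ratios of -0.07, -0.26, 0.12 and 0.23, with the opposite sign to Foxi1 on every array. The other tested genes of the list had neither pattern of signs. Car2, a carbonic anhydrase gene, stood at -0.36 ± 0.08 (SE, limma adjusted p = 0.104).

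The ratios of the set were also compared between the slides. The median log2 ratio of the 23 forkhead genes was 0.36 on slide 1 and 0.06 on slide 2, where over all genes it was 0.0025 and 0.01. By array it was 0.28, 0.23, 0.07 and 0.11 on replicates 1 to 4, with 16, 19, 15 and 14 of the 23 above 0. Over all genes 52.4%, 50.2%, 48.4% and 52% were above 0 on those arrays. The ratio was higher on slide 1 for 19 of 23, and the same share over all genes was not counted. Foxc1 went from 0.68 on slide 1 to 0.35 on slide 2, Foxc2 from 0.68 to 0.26, and Foxd1 from 0.52 to -0.0038. Foxo6 was the member with p under 0.05 whose slides were nearest, at 0.26 and 0.28. The difference between slides passed the adjusted limma test for none of the 23, against 0.893% of all genes. It had an unadjusted p under 0.05 for 5, namely Foxi1, Foxd1, Foxc2, Foxk1 and Foxc1, against 14.3% of all genes. With a sex term in place of the slide term no forkhead gene passed for genotype, against 0.0103% of all genes. The log2 ratios of cDKO over control were also compared between the arrays labelled male and those labelled female. In this limma comparison none of the 23 passed, nor did any other gene. None of the 23 had an unadjusted p under 0.05, against 1.07% of all genes. Because both extracts on an array share a sex label, levels in males against females were not tested. The sex labels are balanced over dye and over slide. However, a ratio that differs by sex label and a dye effect that differs between the slides cannot be told apart. What differs between the slides besides scan and scanner is not given, and its part in the values was not tested.

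With the slide as a term the calls changed. Then 8 forkhead genes passed, all higher in cDKO, against 8.01% of all genes on that side: Foxc1, Foxc2, Foxj3, Foxn3, Foxo6, Foxm1, Foxp2 and Foxd1. The limma adjusted p was 0.00364 for Foxc1 and 0.00548 for Foxc2, and lay between 0.0237 and 0.05 for the other 6. That fit leaves 1 residual degree of freedom and takes the slide difference out of the error, so the spread among the 4 pairs of extracts is not what its p-values measure. On slide 1 alone Foxc1 (0.68, limma adjusted p = 0.0369) and Foxc2 (0.68, limma adjusted p = 0.0384) passed, against 2.85% of all genes in either direction and 1.87% on that side. On slide 2 alone none of the 23 passed, nor did any other gene, and the adjusted p was 0.626 for Foxc1 and 0.787 for Foxc2. The fits on a single slide have no dye term and also leave 1 residual degree of freedom, so a dye effect enters their error. Leaving out a replicate gave no called forkhead gene in any of the 4 cases, while the median moved to 0.06 without replicate 1, 0.10 without replicate 2, 0.27 without replicate 3 and 0.25 without replicate 4.

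**Figure D4:**
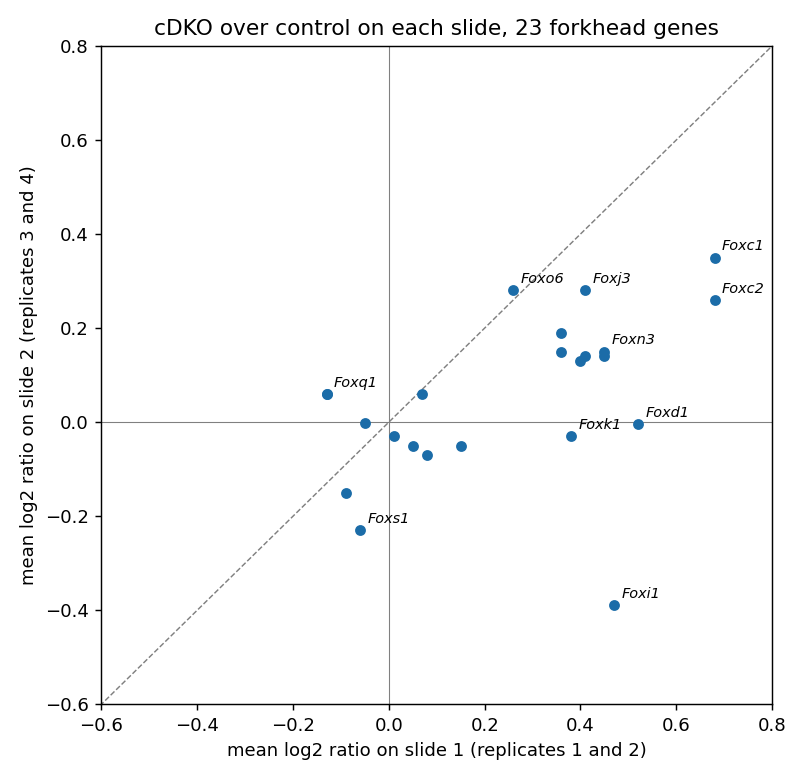
Mean log2 ratio of cDKO over control on slide 1 (horizontal axis, replicates 1 and 2) and on slide 2 (vertical axis, replicates 3 and 4) for the 23 forkhead genes tested, with the dashed line marking equal values. Of the 23 points 19 lie below the line, Foxi1 lies at 0.47 and -0.39, and Foxc1 lies at 0.68 and 0.35.

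Several forkhead genes lie next to each other on the chromosome, and their values can be read side by side. On chromosome 13, within 250 kb of mm9, Foxq1 had -0.04, Foxf2 was not tested and Foxc1 had 0.52. On chromosome 8, within 42 kb, Foxf1 had 0.60 (limma adjusted p = 0.0782), Foxc2 had 0.47 and Foxl1 had 0.95 (limma adjusted p = 0.0279). Another Foxf1 probe, kept through the cDKO channel alone, had 0.18 ± 0.07 (SE). All 3 genes of that cluster were above 0 on all 4 arrays, while on chromosome 13 this held for Foxc1 and not for Foxq1. On chromosome 4, within 19 kb, Foxd2 had 0.30 and Foxe3 was not tested.

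The forkhead genes that the rule left out are given beside these. Of the 8, 7 were tested and 2 passed: Foxl1, a hedgehog target of mesenchyme, rose by 0.95 ± 0.10 (SE, limma adjusted p = 0.0279; 1.93-fold), and Foxa2, an endodermal factor, rose by 0.76 ± 0.11 (SE, limma adjusted p = 0.0425). Foxa2 entered the test through the cDKO channel alone, where it is the higher, with enough spots above background on 4 cDKO and 3 control arrays, so a filter on both channels leaves it out. Its control levels, 6.77 to 7.01, lay near the lowest level well above background. A second Foxa2 probe did not reach 3 of 4 spots on any array in either channel. The median of the 7 was 0.25, with values from -0.03 to 0.95, beside the 0.17 of the 23 genes described here. The rule set aside genes of pathways already described from these arrays, so this contrast was not tested. Within the FOXO family Foxo1 had 0.25 ± 0.09 (SE) and Foxo3 0.15 ± 0.08 (SE), neither past the test, beside the 0.27 of Foxo6.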

How the data were processed

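Per the labels' protocols, the authors labelled 150 ng of total RNA per channel for 2-colour Agilent arrays, with cDKO in Cy5 on replicates 1 and 3 and in Cy3 on replicates 2 and 4. Per the submitters' processing notes, Agilent Feature Extraction 10.7.3.1 read the scans. The deposited scanner files give spot and background intensity per channel, not normalized, and processed intensity. Per the file headers they also give a log10 ratio, Cy5 over Cy3. The authors' deposited value table holds a score per probe, a signed fold with no value between -1 and 1 and a median of 1 on every array. Its correlation with red over green was 0.839, -0.863, 0.838 and -0.843 on replicates 1 to 4, so positive means higher in cDKO. How it was centred is not stated there.

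Intensities were corrected with normexp (offset 50) and ratios were normalized by loess (span 0.3) as log2 values, not the log2 of any deposited score. The probe filter kept 25591 of 39429 probes (64.9%). The brightest kept probe stood for a gene. A model with dye and genotype terms was fitted with limma 3.58.1 (R 4.3.3), with two-sided tests, and genes with an adjusted p under 0.05 were called. It has 2 residual and 4.53 prior degrees of freedom. P-values measure the spread between 4 pairs of extracts, and the number of arrays limits precision. Probes were named through accessions in a RefSeq table (28322), current symbols (3405) or synonyms (243), and 7459 kept their file name. Tested on simulated data with 200 changed genes among 19365, the fit recovered 67.2% of genes changed 1.5-fold, 98.5% changed 2-fold and 100% changed 3-fold, and unchanged genes made up 7.81% of calls. The simulated noise was independent between genes and arrays and held no slide effect. These shares therefore need not hold for the measured arrays.

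Members, role groups and gene lists were chosen with earlier results of these data known. Array values are given for members with p under 0.05 or among the 2 with the smallest p of a role group, and other tested members by value. Of a list the called genes are named, or those with the smallest p. Dcn, Tcf21, Atp6v0d2, Slc4a9 and the values by array of Six2, Cited1, Pax8 and Foxk1 were chosen after seeing them. Alternatives were other background, centring, filter, probe and model choices, leaving out each replicate, and the authors' table. Results of 1 gene that was not tested are not reported here.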

Additional observations from a re-analysis of the deposited data

Results flagged for a closer look

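The Foxp1 log2 ratio of replicate 2, 0.63, stood far from those of the other arrays, which lay between 0.13 and 0.17. The gap to the nearest array was 0.928 of the whole range of the 4 values. Among the ratios and the levels of both channels of the 23 forkhead genes, 69 groups of 4 values were examined, and chance flags about 1 in 20. Each of the other 3 measured Foxp1 probes had its highest ratio on another array.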

How the results depend on the processing

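The count of forkhead genes called was 0 under the main setting and under 13 of 15 alternatives. It was 8 with a slide term and 2 within slide 1. The median over forkhead genes, 0.17 in the main setting, was 0.02 with no filter on dim probes (36 genes), 0.36 within slide 1, 0.06 within slide 2 and 0.06 to 0.27 when each replicate was left out. Of 344 values of single forkhead genes under the alternatives, 24 turned sign, all in 9 genes and none called; none of the 10 genes with p under 0.05 did so. Over all genes 165 were called. The count was 255 with median centring, 1 with no filter, 258 without the dye term, 2418 with a slide term, 2 with a sex term, 551 within slide 1, 0 within slide 2, and 34 to 403 when a replicate was left out. With the scanner software's signals, the authors' table, a stricter filter or the mean of kept probes it was between 205 and 222. Of the 13 genes not tested, signal near background limits what can be said. No paired analysis was possible because each array already pairs cDKO and control RNA in 1 ratio, and the replicate numbers pair no further samples.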
